A study of Mus musculus with 6 samples.

Results

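ABC transporters are membrane proteins that use ATP to carry lipids, peptides, drugs, bile salts and other molecules across membranes, and the family also holds a few soluble ATPases that act on ribosomes. The genes described here are the 46 rows, of 21604 gene symbols in the count table, whose symbol starts with Abca to Abcg and a number. They were taken by name alone, with earlier results of these data known. Their expression was measured by RNA sequencing in RAW 264.7, an established mouse macrophage-like line from a virus-induced tumour, labelled wild type and bone marrow macrophage. For 24 h, cells of 3 libraries had received 100 ng/mL of lipopolysaccharide (LPS), a cell wall component of bacteria to which macrophages respond. Cells of the remaining 3 had received the same LPS dose together with PE-CUR, 2 mg/mL, also for 24 h. PE-CUR is the treatment's name in the labels, and the series title speaks of Pickering emulsions loaded with curcumin, a plant polyphenol. All cells had LPS, and the labels name neither untreated cells nor an emulsion without curcumin, so each difference is between LPS plus PE-CUR and LPS. The stated question is whether PE-CUR acts against inflammation and osteoclast formation. Nothing states that replicates were separate cultures, so p-values measure the spread between these libraries, which may be technical.

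In a macrophage, Abca1 and Abcg1 hand cholesterol and phospholipid to lipoprotein particles, and both are classic targets of the sterol receptors LXR. Abcb1, Abcc and Abcg2 proteins at the cell surface expel drugs, glutathione conjugates and signalling lipids. Other members sit in membranes within the cell. Abca2, Abca3, Abca5, Abcb9 and Abcd4 belong to lysosomes or related bodies, Abcb6, Abcb8 and Abcb10 mainly to mitochondria, and Abcd2 and Abcd3 to peroxisomes. Abce1 and the Abcf proteins carry no membrane domain and work in translation.

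Libraries held 28530750 to 35276533 counts in all. CPM is a count scaled to the library's total, and 1 CPM stands for about 29 to 35 counts before TMM scaling. All CPM except marker sums also carry that scaling (factors of 0.964 to 1.03). All 10 macrophage markers were detected, with 300194 to 418846 summed counts per library, and 2 were higher and 4 lower in LPS plus PE-CUR. Transcripts of liver cells set libraries apart. The 12 hepatocyte markers summed to 86.2 to 102 CPM in the 3 LPS libraries and 99.2 CPM in LPS plus PE-CUR replicate 3, but to 4.16 and 3.92 CPM in replicates 1 and 2. Albumin had 1081 to 1711 counts in those 4 libraries, against 1 and 0 counts in replicates 1 and 2 of LPS plus PE-CUR. Trf gave 127 of the 134 and 134 of the 138 hepatocyte marker counts in those 2 replicates. Collagen genes of fibroblasts stood out in LPS plus PE-CUR replicate 2, with 180 counts of Col1a1 against at most 15 elsewhere. The other marker lists (muscle, red blood cell, neutrophil, lymphocyte, kidney and intestine, lung, retina and testis) each summed to at most 38.6 CPM, with lung and testis at or near 0. The highest, muscle, was mostly Tnni2 (892 to 1204 counts per library), while Ckm had 5 to 19 counts and Myh4 at most 1. The neutrophil list summed to 4.03 to 5.35 CPM in LPS and 1.71 to 2.44 CPM in LPS plus PE-CUR. Nearly all of that sum was S100a8, and Ltf and Elane had at most 1 count in any library. In bulk RNA, fewer cells of a type and less RNA per cell cannot be told apart.

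The family moved in both directions. Of the 46 members, 33 had enough counts to be tested. Of these, 9 were higher in LPS plus PE-CUR, 14 were lower and 10 did not pass (edgeR quasi-likelihood test, Benjamini-Hochberg adjusted p under 0.05 over all genes tested). The share called, 69.7%, lay near the 63.4% of all 13014 genes tested, so being called sets no member apart. Over all genes 30.8% were higher and 32.7% lower, against 27.3% and 42.4% of the tested members. At least 2-fold, 1 member was higher and 9 were lower, where the shares over all genes were 6.37% and 11.5%. Of these 9, 6 had fewer than 5 CPM in LPS. Values of the groups did not overlap in 26 of 33 members (78.8%) and in 69.0% of all genes tested. The median log2 fold change was -0.15 over the tested members and -0.03 over all genes. Since 3 tested members (Abca5, Abca8a and Abcc2) reached the level of the filter in the LPS group only, these counts are a description. A fit of the 4 libraries with hepatocyte transcripts was added after seeing the data. It has 1 treated library, and so no spread between treated libraries. What part hepatocyte RNA has in these calls was not tested. Summed over all members, the family held 0.205% to 0.215% of counts in LPS and 0.208% to 0.231% in LPS plus PE-CUR, which overlap. With TMM scaling the sums were 2086, 2018 and 2095 CPM in LPS and 2295, 2197 and 2145 CPM with PE-CUR, which do not overlap, so whether the total differs depends on the scaling.

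Per unit of gene length (FPKM, the authors' values), the soluble ATPases led. Abce1 stood at 62.2 ± 3.36 FPKM in LPS, Abcf1 at 46.3 ± 0.989 and Abcf2 at 42.8 ± 1.24 (mean ± SD, n = 3 in all values of this kind). Abcc1 followed at 36.0 ± 1.60 FPKM and Abcb1b at 22.7 ± 0.185. These 5 genes held the same first 5 places in LPS plus PE-CUR. Abca1 was at only 0.0985 ± 0.0415 FPKM in LPS, place 31 of 46, although it is a hallmark cholesterol exporter of macrophages.

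**Figure D1:**
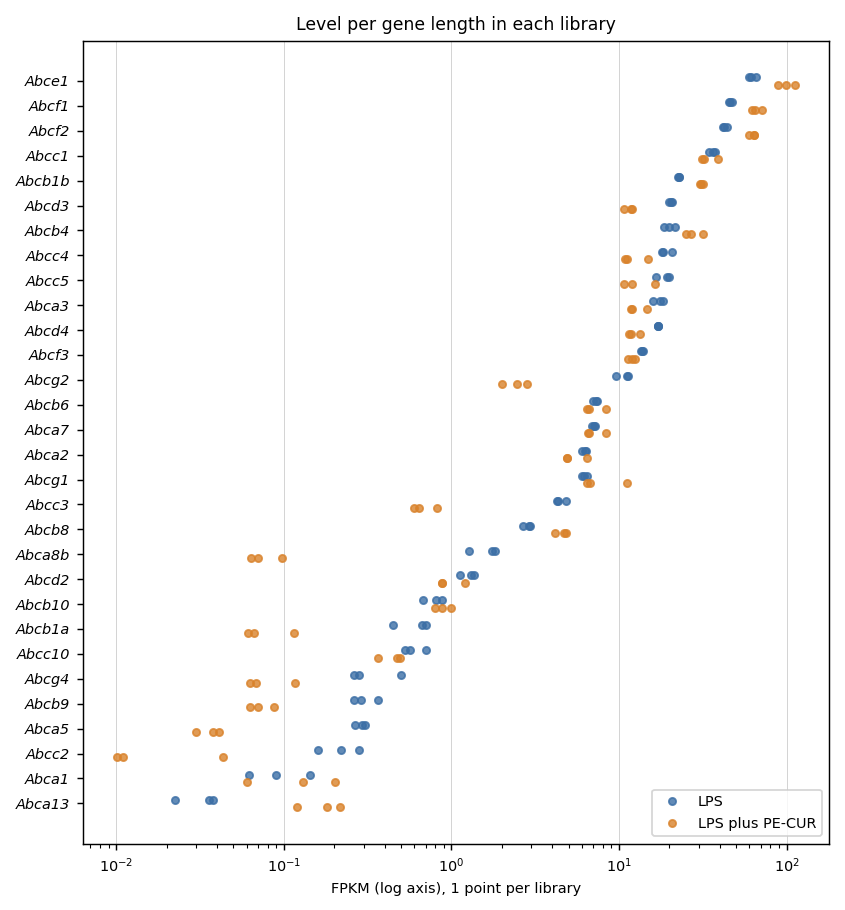
Level per gene length of 30 of the 33 tested members (Abca8a, listed at 0 in 2 libraries, is among those left out), in FPKM on a log axis, with 1 point for each of 3 LPS and 3 LPS plus PE-CUR libraries. Abce1, Abcf1 and Abcf2 lie at the top, Abcg2, Abcc3 and Abca8b show the widest gaps among genes above 1 FPKM in LPS, and Abca1 and Abca13 are the lowest of the drawn genes in LPS, while Abcc2 is the lowest in LPS plus PE-CUR.

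**Figure D2:**
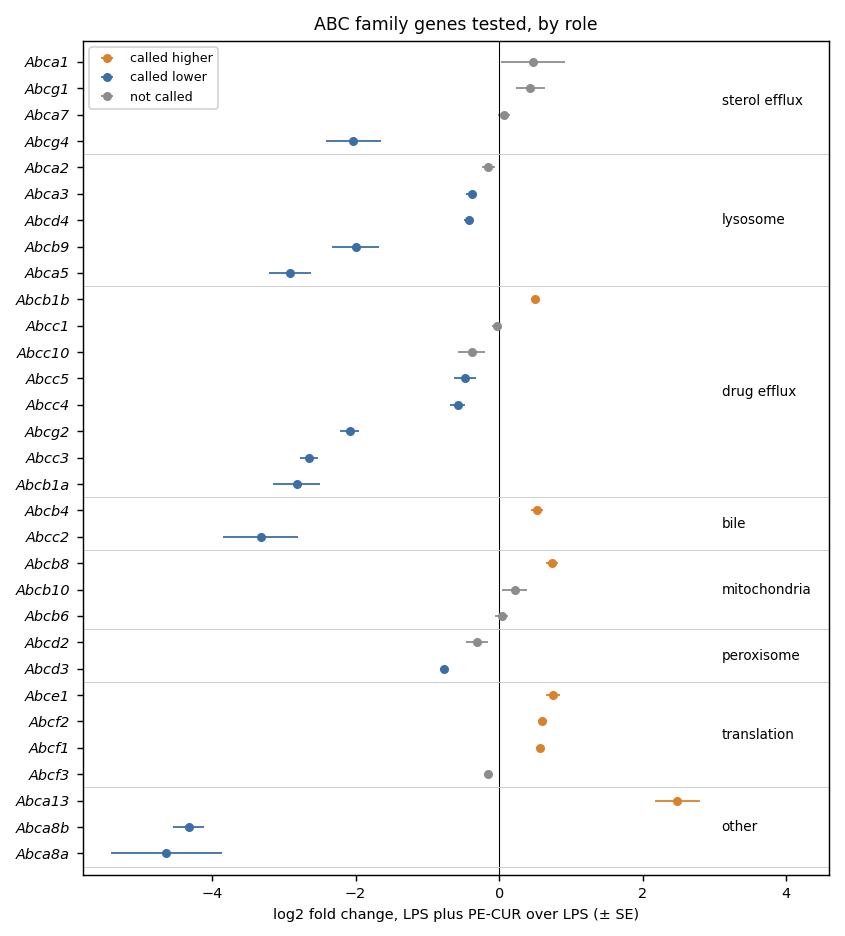
Log2 fold change of LPS plus PE-CUR over LPS with its SE for 31 of the 33 tested members, grouped by role and coloured by the call at an adjusted p of 0.05. All called lysosomal members lie left of 0, Abcb8 and the called translation members right of it, and the value of Abca8a rests on 2 counts in LPS plus PE-CUR.

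Abcb1a, Abcb1b and Abcb4 lie in a row on mouse chromosome 5 (Abcb1a at 8567091 to 8748575, Abcb1b at 8798147 to 8866314 and Abcb4 at 8893614 to 8959226, GRCm38.p6, the assembly of mm10). Abcb1a and Abcb1b are the rodent copies of the drug pump P-glycoprotein, and Abcb4 carries phosphatidylcholine into bile in the liver. Since Abcb1a fell while the others rose, the 150 bases just before each start in RefSeq's promoter table are shown (GRCm38.p6; the start used for Abcb4 lies inside its annotated range), 5′ to 3′ on the plus strand. Capitals mark GGGCGG, the GC box bound by Sp1-type factors.

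Abcb1a, chr5:8566941-8567090: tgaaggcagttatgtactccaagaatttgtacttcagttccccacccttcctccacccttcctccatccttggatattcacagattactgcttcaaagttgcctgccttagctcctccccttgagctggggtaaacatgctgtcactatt

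Abcb1b, chr5:8797997-8798146: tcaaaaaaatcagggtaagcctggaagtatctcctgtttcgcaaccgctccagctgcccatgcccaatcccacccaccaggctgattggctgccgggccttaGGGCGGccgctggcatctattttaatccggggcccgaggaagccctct

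Abcb4, chr5:8893571-8893720: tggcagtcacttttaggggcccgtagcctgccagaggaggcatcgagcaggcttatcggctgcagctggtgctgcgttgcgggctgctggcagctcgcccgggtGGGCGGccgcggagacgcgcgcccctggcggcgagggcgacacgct

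The promoters of Abcb1b and Abcb4 each hold 1 GC box, 48 and 46 bases before the start, and that of Abcb1a holds none within 250 bases before to 50 after the start used. That start is far from the one in GENCODE M21, which begins Abcb1a at 8660077, so the absence holds for the RefSeq start only. The motifs searched on both strands of such windows were GGGCGG, the E-box CACGTG, the antioxidant element core TGACNNNGC, and AGGTCA, a core element of nuclear receptors such as LXR. None of the 4 contains another, though matches can share letters, and a gene counted once per motif if any of its listed starts had a match. A promoter was given for 34 of the 46 members. GGGCGG was in 4 of 6 members called higher, 6 of 11 called lower and 6 of 7 not called, against 65.8% of all tested genes with a promoter. TGACNNNGC was in 0 of 6 called higher, 4 of 11 called lower (Abca8b, Abcb1a, Abcc2 and Abcc4) and 1 of 7 not called. In all it was in 5 of 24 tested members with a promoter (20.8%), near the 16.9% of tested genes. CACGTG was in 5 of 24 tested members with a promoter and AGGTCA in 4 of 24, against 11.8% and 15.1% of tested genes. A match is a description of letters in this window.

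Abcb1a had 2.27, 3.38 and 3.57 CPM in the LPS libraries and 0.339, 0.618 and 0.325 CPM in those with PE-CUR. The groups lay far apart, and the gene fell 7.06-fold (log2 fold change of -2.82, SE 0.33, edgeR adjusted p = 2.34e-05). Abcb1b was far more abundant, with 112, 111 and 111 CPM in LPS and 151, 159 and 164 CPM in LPS plus PE-CUR. Each treated library lay above each LPS library, and the gene rose 1.42-fold (log2 fold change of 0.51, SE 0.06, edgeR adjusted p = 1.54e-05). Abcb4 stood at 88.6, 76.2 and 81.0 CPM in LPS and 131, 116 and 108 CPM in LPS plus PE-CUR, a rise of 1.45-fold (log2 fold change of 0.53, SE 0.08, edgeR adjusted p = 2.10e-04). The transcripts of Abcb1a and Abcb1b are alike. Of all 50-base stretches of Abcb1a, 17.6% occur in another member, mostly Abcb1b, so reads from such stretches could be assigned to either gene or dropped. With the counts of both summed, the log2 fold change was 0.47 (edgeR adjusted p = 2.60e-05). Abcb1b gave 11300 counts in LPS and 14839 in LPS plus PE-CUR, against 314 and 41 for Abcb1a. The sum therefore follows Abcb1b, and what part shared reads have in the fall of Abcb1a was not tested. Abcb1a also shares 553 exon bases, 10.1% of its exons, with Gm42686 on the opposite strand, and whether counting used strand is not given in the sources used here.

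On chromosome 11, Abca8b and Abca8a, lipid transporter genes of the same subgroup, lie next to each other (109932206 to 109996274 and 110025634 to 110097580). Abca8b stood at 14.3, 9.99 and 13.6 CPM in LPS and at 0.770, 0.530 and 0.578 CPM in LPS plus PE-CUR. The groups lay far apart (log2 fold change of -4.32, SE 0.21, edgeR adjusted p = 9.82e-08). The summed rate was 20.2 times higher in LPS (95% exact interval 15.5 to 26.6, for counting error only). Abca8a had 22, 24 and 17 counts in LPS and 0, 0 and 2 in LPS plus PE-CUR, so the groups did not overlap. Its summed rate was 29.2 times higher in LPS, with a 95% exact interval of 7.75 to 246 for counting error only (edgeR adjusted p = 3.21e-04). Its 2 treated counts lay in replicate 3, the treated library with hepatocyte transcripts, and without that library the treated group is at 0. In the 4 libraries with those transcripts, of which 1 is treated, its log2 fold change was -2.99, against -4.64 with all 6. The part of hepatocyte RNA in it was not tested. Of the next genes in that row, Abca9 had 2 counts and Abca6 had 8 counts over all libraries. Abca5 (110269369 to 110337723), a lysosomal member, had 70, 78 and 89 counts in LPS and 10, 12 and 7 in LPS plus PE-CUR. Its values of 2.15 to 2.46 CPM against 0.253 to 0.353 CPM lay well apart, a 7.51-fold fall (log2 fold change of -2.91, SE 0.29, edgeR adjusted p = 7.76e-06). Abca5 and Abca8a reached the level of the filter in the LPS group only, so their folds and p-values are a description. Abca8a and Abca8b share 1.64% of the 50-base stretches of Abca8a.

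**Figure D3:**
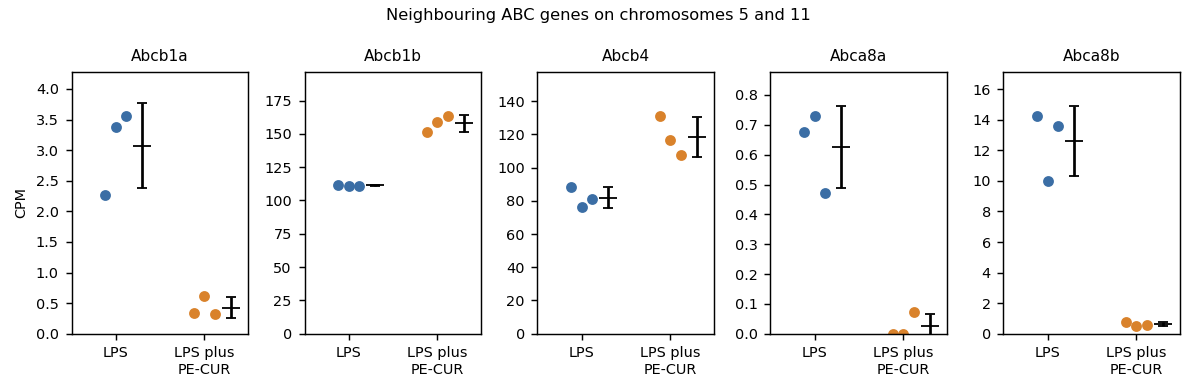
CPM of Abcb1a, Abcb1b and Abcb4 (neighbours on chromosome 5) and of Abca8a and Abca8b (neighbours on chromosome 11), with 1 point per library and the mean ± SD of 3 beside the points. Abcb1a falls from a mean of 3.07 to 0.427 CPM while Abcb1b rises from 111 to 158 CPM, and both chromosome 11 genes lie near 0 in LPS plus PE-CUR.

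Of the other drug and conjugate pumps, 4 fell and 2 did not pass. Abcg2, the breast cancer resistance protein, which expels drugs, urate and porphyrins (chromosome 6, 58584491 to 58692451), had 35.1, 40.7 and 41.0 CPM in LPS. It had 7.36, 10.8 and 9.39 CPM in LPS plus PE-CUR. The groups lay far apart, a 4.24-fold fall (log2 fold change of -2.08, SE 0.13, edgeR adjusted p = 7.12e-07). Abcc3, which exports glucuronides and bile salts (chromosome 11, 94343295 to 94393017), had 23.7, 21.4 and 21.0 CPM in LPS and 4.09, 3.33 and 3.07 CPM in LPS plus PE-CUR. It fell 6.28-fold with wide separation of the groups (log2 fold change of -2.65, SE 0.13, edgeR adjusted p = 8.17e-08).

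Abcc4, which exports cyclic nucleotides and prostaglandins, fell less, from 164, 162 and 184 CPM to 134, 105 and 102 CPM (log2 fold change of -0.58, SE 0.11, edgeR adjusted p = 0.00155). Abcc5, another exporter of cyclic nucleotides, had 214, 179.8 and 207 CPM in LPS and 177, 135 and 121 CPM in LPS plus PE-CUR, so the nearest libraries of the groups almost touched. Its fall passed narrowly (log2 fold change of -0.48, SE 0.15, edgeR adjusted p = 0.0340) and was lost when any single library but LPS plus PE-CUR replicate 1 was removed (edgeR adjusted p of 0.120 without LPS replicate 1, 0.0558 without 2 and 0.122 without 3, and 0.121 and 0.0765 without LPS plus PE-CUR replicates 2 and 3).

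Abcc1, the main exporter of glutathione conjugates and leukotriene C4, was the most abundant drug pump per gene length. It had 284, 268 and 289 CPM in LPS and 306, 256 and 262 CPM in LPS plus PE-CUR. The groups overlapped and the gene did not pass (log2 fold change of -0.03, SE 0.07, edgeR adjusted p = 0.740). Abcc10, another drug exporter, had means of 4.38 ± 0.654 and 3.35 ± 0.488 CPM, with no call (edgeR adjusted p = 0.0918). Of 14 tested genes of glutathione supply, conjugation and turnover, 8 fell, 1 rose and 5 did not pass (median log2 fold change of -0.66, against -0.03 over all genes). Beside this and the later lists, 32.7% of all genes tested were lower and 30.8% higher. Gclm, the modifier subunit of the first enzyme of glutathione synthesis, fell from 197 ± 17.3 to 78.1 ± 3.49 CPM. Ggt1, which breaks down glutathione outside the cell, fell from 3.88 ± 0.450 to 0.111 ± 0.0629 CPM, and Gstm1, a glutathione transferase, from 22.8 ± 3.76 to 5.999 ± 0.309 CPM. Gsr, which regenerates glutathione, rose from 62.2 ± 0.387 to 91.0 ± 4.36 CPM.

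Of the 4 tested lipid exporters of the cell surface, Abcg4 fell and Abca1, Abca7 and Abcg1 did not pass. Abcg1, which loads cholesterol onto high-density lipoprotein (chromosome 17, 31057694 to 31117984), had 36.9, 34.4 and 35.1 CPM in LPS. With PE-CUR added it had 64.2, 39.1 and 40.3 CPM, so 1 library lay far above the other two, yet all 3 lay above LPS. It did not pass (log2 fold change of 0.43, SE 0.21, edgeR adjusted p = 0.117). Without that library, LPS plus PE-CUR replicate 1, the log2 fold change was 0.19 and passed (edgeR adjusted p = 0.0394), and Abcg1 also passed without LPS plus PE-CUR replicate 2 (0.61, edgeR adjusted p = 0.0329). DESeq2 (adjusted p = 0.00781) and 2 other fits called it too. Abca1 (chromosome 4, 53030789 to 53159988) had 48, 21 and 33 counts in LPS and 68, 48 and 18 in LPS plus PE-CUR, with overlap and no call (log2 fold change of 0.47, SE 0.44, edgeR adjusted p = 0.381). Its log2 fold change turned to -0.58 in the 4 libraries with hepatocyte transcripts, of which 1 is treated.

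Abca7, a phospholipid transporter that also serves phagocytosis, had 47.1, 46.0 and 47.3 CPM in LPS and 56.1, 45.6 and 45.6 CPM in LPS plus PE-CUR (edgeR adjusted p = 0.502). The groups overlapped. Abcg4, a close relative of Abcg1, fell 4.09-fold from a low level. It had 49, 46 and 96 counts in LPS and 12, 12 and 18 in LPS plus PE-CUR (log2 fold change of -2.03, SE 0.38, edgeR adjusted p = 7.49e-04).

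Of 18 tested partners and LXR targets, 14 fell, 3 rose and 1, Apoe, did not pass (median log2 fold change of -0.60). Pltp, which moves phospholipid between lipoproteins, fell from 32.4 ± 2.03 to 10.2 ± 0.582 CPM. Lpcat3, which remodels phospholipids, fell from 105 ± 5.03 to 43.4 ± 3.70 CPM, and Smpdl3a from 22.0 ± 2.13 to 6.60 ± 0.147 CPM. Mylip, an LXR target that degrades the LDL receptor, went the other way, from 0.979 ± 0.412 to 6.31 ± 1.94 CPM, and Srebf1, the lipid synthesis factor, rose from 66.1 ± 5.54 to 78.4 ± 3.58 CPM. Of the list, 3 higher dropped to 1 when only library size set the scale and in the fits of log2 FPKM.

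All called lysosomal members fell, 4 of 5 tested. Abca3, the lipid pump of lamellar bodies (chromosome 17, 24351921 to 24410204), had 103, 114 and 118 CPM in LPS and 95.3, 80.3 and 81.1 CPM in LPS plus PE-CUR. Its groups came close without overlap (log2 fold change of -0.38, SE 0.08, edgeR adjusted p = 0.00156), and 9.75% of its exon bases lie opposite D330041H03Rik. Abcd4, which helps cobalamin leave the lysosome, had 58.2, 58.1 and 57.8 CPM in LPS and 46.0, 42.4 and 41.1 CPM in LPS plus PE-CUR. Its LPS replicates were nearly equal, and the fall was 1.34-fold (log2 fold change of -0.43, SE 0.07, edgeR adjusted p = 1.87e-04). Abcb9, a peptide transporter of lysosomes, fell from 42, 59 and 51 counts to 14, 11 and 10 (log2 fold change of -2.00, SE 0.32, edgeR adjusted p = 2.72e-04). Abca2, which handles cholesterol in late endosomes, had 67.1, 68.6 and 64.3 CPM in LPS and 70.1, 55.3 and 54.9 CPM in LPS plus PE-CUR. It overlapped and did not pass (edgeR adjusted p = 0.185), but passed as lower without its highest library, replicate 1 of LPS plus PE-CUR (a log2 fold change of -0.25, edgeR adjusted p = 0.00613).

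Abcd4 works with Lmbrd1, and Lmbrd1 also fell, from 117 ± 3.60 to 57.0 ± 2.85 CPM. So did Tcn2, the carrier that brings cobalamin to cells, from 75.6 ± 5.27 to 22.4 ± 2.90 CPM. Those were the 2 that fell of 10 tested genes of cobalamin handling, of which 5 rose and 3 did not pass. Mmachc, which processes cobalamin in the cytosol, rose from 10.9 ± 0.528 to 23.5 ± 1.19 CPM, and Mmut, a mitochondrial enzyme that uses it, from 49.5 ± 1.05 to 67.9 ± 2.13 CPM. Cd320, the surface receptor for the carrier, rose from 13.8 ± 1.13 to 24.9 ± 3.31 CPM.

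Among mitochondrial members, Abcb8 rose, and Abcb6 and Abcb10 did not pass. Abcb8, a transporter of the inner membrane linked to iron export (chromosome 5, 24393681 to 24412759), had 15.1, 16.8 and 16.3 CPM in LPS and 27.8, 24.9 and 27.8 CPM in LPS plus PE-CUR. The groups were clearly separate, and it rose 1.67-fold (log2 fold change of 0.74, SE 0.08, edgeR adjusted p = 2.09e-05). Abcb6, a porphyrin transporter, had 22.1, 21.2 and 22.1 CPM in LPS and 25.5, 21.2 and 20.3 CPM with PE-CUR, overlapping, with no call (edgeR adjusted p = 0.779). The transcript Gm29253 covers 55.2% of its exon bases on the same strand, so its count depends on how shared reads were handled. Abcb10, which supports early haem synthesis, stood at 3.50 ± 0.463 and 4.08 ± 0.448 CPM, without a call (edgeR adjusted p = 0.306).

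Of 21 tested genes of iron-sulfur cluster assembly, 11 rose, 3 fell and 7 did not pass (median log2 fold change of 0.17). Glrx5, which passes clusters on, rose from 29.8 ± 1.29 to 45.0 ± 0.789 CPM and Nubp1, a cytosolic scaffold, from 35.4 ± 2.48 to 53.1 ± 3.42 CPM, while Hscb, a co-chaperone, fell from 19.5 ± 1.16 to 14.4 ± 1.26 CPM. The count of 3 lower became 1 in 6 of the alternative fits, namely DESeq2, the replicate block, the 4 libraries with hepatocyte transcripts, and without LPS replicate 2 or replicate 2 or 3 of LPS plus PE-CUR. The 13 haem synthesis genes were divided, with 5 higher, 3 lower and 5 not passing (median log2 fold change of 0.04). Slc25a38, a glycine carrier of mitochondria, rose from 12.8 ± 1.22 to 21.3 ± 1.10 CPM, whereas Slc25a37, which brings iron into mitochondria, fell from 270.1 ± 18.3 to 147 ± 6.80 CPM.

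Among peroxisomal members, Abcd3 fell and Abcd2 did not pass. Abcd3, which imports branched fatty acids and bile acid precursors (chromosome 3, 121758904 to 121815302), had 128, 133 and 132 CPM in LPS. It had 76.6, 73.3 and 80.8 CPM in LPS plus PE-CUR. The replicates were tight and the fall was 1.70-fold (log2 fold change of -0.77, SE 0.06, edgeR adjusted p = 1.16e-06). Abcd2, a transporter of very long chain fatty acids, had 7.74, 6.40 and 7.30 CPM in LPS and 6.89, 5.21 and 5.17 CPM in LPS plus PE-CUR. It overlapped and did not pass (edgeR adjusted p = 0.106), except without LPS plus PE-CUR replicate 1, where it was lower (log2 fold change of -0.43, edgeR adjusted p = 0.0243). Other peroxisomal genes were divided too, with 5 higher, 10 lower and 7 not passing of 22 tested (median log2 fold change of -0.13). Cat, catalase, fell from 282 ± 27.6 to 92.0 ± 2.76 CPM and the import receptor gene Pex5 from 67.9 ± 2.20 to 45.6 ± 1.94 CPM. Pex10, a ligase of the import machinery, rose from 9.37 ± 0.226 to 24.5 ± 2.49 CPM. The 10 lower became 6 in the 4 libraries with hepatocyte transcripts, and the 5 higher became 3 with library size alone as the scale and in the 3 fits of log2 FPKM.

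Of the 4 soluble ATPases, 3 rose. Abce1, which splits ribosomes after termination (chromosome 8, 79683442 to 79711740), had 247, 224 and 227 CPM in LPS and 334, 447 and 389 CPM in LPS plus PE-CUR. Its lowest treated library lay well above the highest LPS library, a 1.68-fold rise (log2 fold change of 0.75, SE 0.10, edgeR adjusted p = 1.86e-04). Abcf1, which binds the initiation factor eIF2, had 141, 147 and 141 CPM in LPS and 222, 203 and 211 CPM in LPS plus PE-CUR. It rose 1.48-fold with narrow spread (log2 fold change of 0.57, SE 0.06, edgeR adjusted p = 7.98e-06). Abcf2, a related ATPase, rose 1.52-fold, from 125, 133 and 126 CPM to 194, 188 and 202 CPM (log2 fold change of 0.60, SE 0.06, edgeR adjusted p = 4.71e-06).

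Abcf3, the remaining one, had 44.5, 43.6 and 44.7 CPM in LPS and 40.5, 38.5 and 40.2 CPM in LPS plus PE-CUR. Its groups did not overlap, yet it missed the threshold (log2 fold change of -0.15, SE 0.06, edgeR adjusted p = 0.0527). It passed as lower in 6 alternative fits, such as library size alone (-0.21, edgeR adjusted p = 0.0218). Of 20 tested genes of ribosome recycling and translation initiation, 12 rose, 1 fell and 7 did not pass (median log2 fold change of 0.35). Gspt1, the release factor eRF3a, rose from 162 ± 3.37 to 339 ± 9.42 CPM, Eif2s3x, a subunit of eIF2, from 98.9 ± 3.22 to 188 ± 6.84 CPM, and Eif1ax from 88.6 ± 4.83 to 131 ± 1.71 CPM. The exception was Eif1, a start codon selection factor, which fell from 560.5 ± 24.3 to 344 ± 11.1 CPM. Pelo and Hbs1l, which act with Abce1 on stalled ribosomes, had means of 5.19 ± 1.68 and 94.5 ± 1.88 CPM in LPS, and 6.19 ± 0.701 and 95.3 ± 1.97 CPM with PE-CUR, and did not pass.

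**Figure D4:**
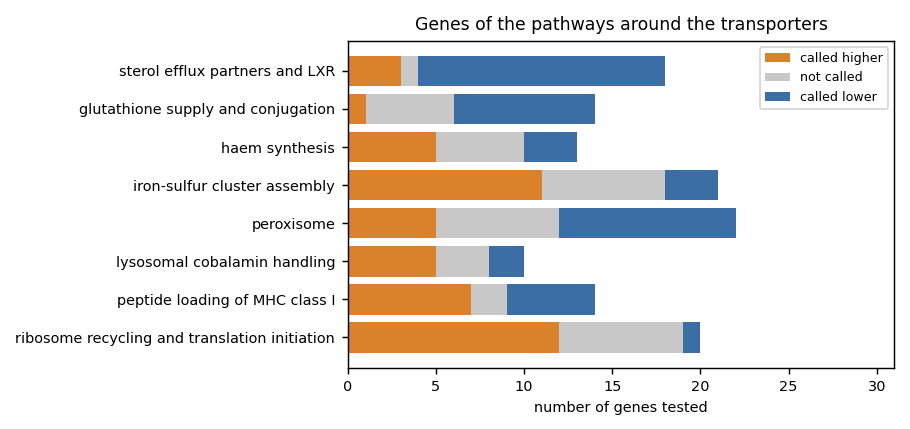
Number of tested genes called higher, not called and called lower in LPS plus PE-CUR in 8 pathways around the transporters. Lower were 14 of 18 sterol efflux partners and 8 of 14 glutathione genes, where 32.7% of all genes tested were lower. Higher were 12 of 20 translation genes and 11 of 21 iron-sulfur genes, where 30.8% of all genes tested were higher. The lists were chosen with earlier results of these data known, so these counts are a description.

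ABC genes under other symbols, outside the name rule, were Tap1, Tap2 and Cftr. Tap1 and Tap2, the subunits of the transporter that feeds peptides to MHC class I, went apart. Tap1 had 32.6, 38.5 and 36.2 CPM in LPS and 58.4, 55.0 and 60.7 CPM in LPS plus PE-CUR (log2 fold change of 0.70, SE 0.08, edgeR adjusted p = 1.76e-05). Tap2 had 55.0, 55.3 and 61.9 CPM in LPS and 44.4, 39.3 and 38.7 CPM in LPS plus PE-CUR (log2 fold change of -0.49, SE 0.08, edgeR adjusted p = 2.35e-04). Neither overlapped between groups. Cftr, an epithelial chloride channel, had 1 count in all. Of 14 tested genes of class I loading, Tap1 and Tap2 included, 7 rose, 5 fell and 2 did not pass (median log2 fold change of 0.27). The 5 lower became 3 in 5 alternatives: no filter, the 4 libraries with hepatocyte transcripts, and without LPS replicate 2, LPS replicate 3 or LPS plus PE-CUR replicate 2. Psmb10, an immunoproteasome subunit, rose from 7.25 ± 0.660 to 23.6 ± 0.247 CPM and Tapbp, which bridges the transporter and class I, from 177 ± 16.6 to 328 ± 20.1 CPM. H2-D1, a class I heavy chain gene, fell from 636 ± 31.1 to 429 ± 14.7 CPM.

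The 6 members grouped under liver and gut, all but Abcc6 for bile or sterol secretion, gave 1 rise (Abcb4), 1 fall (Abcc2) and 4 genes too low to test. Abcb11, the bile salt pump of hepatocytes, had 8, 5 and 7 counts in LPS and 1, 2 and 7 in LPS plus PE-CUR. Its counts were low in the same 2 libraries as the hepatocyte markers. Abcg5 had 3, 0 and 3 counts in LPS and 0, 0 and 2 in LPS plus PE-CUR, and Abcg8, its partner in sterol secretion, 3, 0 and 1, then 0, 0 and 1. Abcc6 had 7, 3 and 5 counts in LPS and 1, 0 and 0 in LPS plus PE-CUR. None of these 4 was tested, and what part hepatocyte RNA has in their counts was not tested.

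Abcc2, an exporter of conjugates at the bile canaliculus, had 29, 40 and 56 counts in LPS and 2, 2 and 7 in LPS plus PE-CUR. The groups did not overlap, and it fell 10.0-fold (log2 fold change of -3.32, SE 0.52, edgeR adjusted p = 2.18e-04). Abcc2 reached the level of the filter in the LPS group only, so its fold and p-value are a description. In LPS plus PE-CUR replicate 3 the hepatocyte markers summed to 99.2 CPM, within the LPS range, and Alb gave 1648 of those 2830 counts. Abcc2 was highest of its group there, at 7 counts, and below each LPS library. What part hepatocyte RNA has in the counts of Abcc2 was not tested. Without LPS plus PE-CUR replicate 3 the log2 fold change was -4.24, and in the 4 libraries with hepatocyte transcripts it was -2.20. The fit of those 4 has 1 treated library, which is assumed to vary like the LPS libraries. Abcb4, described above, had 2500 to 4267 counts in every library. Within LPS plus PE-CUR it stood at 131 and 116 CPM in the libraries with few hepatocyte markers and at 108 CPM in replicate 3. In LPS replicates 1, 2 and 3 Abcb4 stood at 88.6, 76.2 and 81.0 CPM, and the markers, without TMM scaling, at 102, 86.2 and 97.1 CPM. In the 4 libraries with hepatocyte transcripts the log2 fold change of Abcb4 was 0.45. What part hepatocyte RNA has in its level was not tested.

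**Figure D5:**
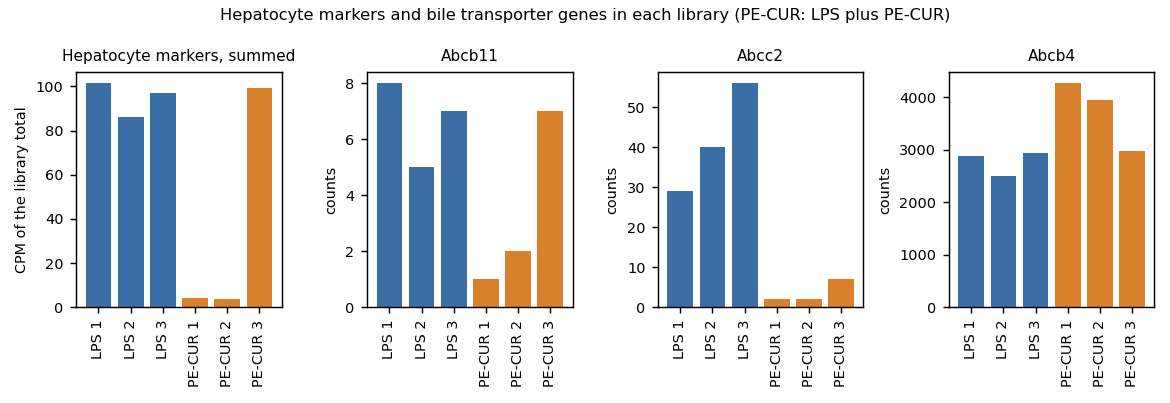
Bars give, for each of the 6 libraries, the summed level of 12 hepatocyte markers (CPM of the library total) and the counts of Abcb11, Abcc2 and Abcb4. Hepatocyte markers and Abcb11 are low in LPS plus PE-CUR replicates 1 and 2 alone, and Abcc2 is low in all 3 treated libraries. Abcb4 has its highest counts in LPS plus PE-CUR replicates 1 and 2.

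Of the members of other tissues, Abca13 was the only one at least 2-fold higher, at a low level. It is a very large, little studied gene (chromosome 11, 9191942 to 9684871) with 19, 12 and 22 counts in LPS and 97, 126 and 57 in LPS plus PE-CUR. The groups were separate, a 5.59-fold rise (log2 fold change of 2.48, SE 0.32, edgeR adjusted p = 4.90e-05). Per gene length it reached only 0.172 ± 0.0481 FPKM in LPS plus PE-CUR. The 13 members that were not tested had at most 9 counts in any library, and 8 members had fewer than 10 counts over all 6. Summed, the untested genes had 114 counts in LPS and 27 in LPS plus PE-CUR, and 11 of 13 had fewer in LPS plus PE-CUR. Of all 8590 genes with a count that were not tested, 64.2% had fewer counts there, and the treated libraries held a count for 16701 to 17002 genes against 18210 to 18451 in LPS. Abca14 had 8, 8 and 7 counts against 1, 1 and 0, and Abca17 had 6, 3 and 9 against 2, 2 and 2. The channel regulators Abcc8 and Abcc9 had 6 and 10 counts in LPS and 0 and 1 in LPS plus PE-CUR. Abca4, the retinal transporter, Abca12, the skin lipid transporter, and Abca16 had 1 to 3 counts in all.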

How the data were processed

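Tools named in the submitters' processing notes are HTSeq, fastp, DESeq2 and SAMtools, without versions, and the build is mm10. Aligner and strand setting: not given in the sources used here. The authors deposited whole-number counts per gene symbol and FPKM values, which equal those counts per gene length and library total in 100% of 105337 values above 0 (relative tolerance 0.0001). Each column carries a sample title as its name, and so its group and replicate.

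Counts were tested with edgeR 4.0.16 in R 4.3.3 on all 6 libraries: filterByExpr (13014 genes kept), TMM factors (0.964 to 1.03), robust quasi-likelihood F test with the group as its only term, two-sided, Benjamini-Hochberg over all genes tested. The SE is the log2 fold change divided by the root of F, and CPM are scaled by TMM except for marker sums. Alternatives included DESeq2 1.42.0 and limma 3.58.1. The code was tested on simulated data.

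The members, lists and tests were chosen with earlier results of these data known. A member has its value in every library if its mean reached 5 CPM in either group, or if it was tested and changed at least 2-fold; others have counts or means. From each list up to 3 passing genes with the smallest p in the majority direction and 2 in the other are named; Apoe, Pelo and Hbs1l were added after their values were seen. Replicate numbers did not pair the libraries. Coordinates and promoters are from RefSeq GRCm38.p6, and exon overlaps and 50-base stretches from GENCODE M21. Values of some genes are not reported here, though counts over all members and lists include them.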

Additional observations from a re-analysis of the deposited data

How the results depend on the processing

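Under 18 other settings the members called higher numbered 9 or 10 and those called lower 12 to 18, against 9 and 14. They were dropping the filter, requiring a mean of 1 CPM, scaling by library size or by median-ratio factors, limma-voom, DESeq2 and 3 fits of log2 FPKM. Others were the replicate block, each library left out, and removal of the 10 most abundant genes and of any symbol starting with mt-. The mitochondrial gene COX1, among those 10, is listed without that prefix, so other mitochondrial genes may have stayed in. The last setting, the 4 libraries with hepatocyte transcripts, was added after seeing the data and has 1 treated library. Of the 23 called members, 22 were called in the same direction wherever they were tested, and Abcc5 was the exception. Abca8a, Abcb9 and Abcc2 had no value at a mean of at least 1 CPM. No called member turned its direction. The replicate block gave 10 higher and 14 lower, the added one being Abcg1 (adjusted p = 0.0404); same-numbered libraries correlated at -0.10, -0.18 and -0.05 in their deviations, so the numbers were not read as pairs. On log2(FPKM + 1) the falls of genes under about 1 FPKM shrink, as the pseudocount exceeds their level: Abca5 gave -0.31 and Abcg4 -0.31. Depth limits members with under 10 counts, where a count of 1 or 2 decides the value.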
